A study of Mus musculus with 4 samples.

Results

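MHC class I presentation was followed here through 10 genes, B2m, H2-K1, H2-D1, Tap1, Tap2, Tapbp, Psmb8, Psmb9, Psmb10 and Nlrc5, in single cells of the mouse kidney. The genes were taken as a list of symbols by their role, chosen with earlier results of these data known, and they are 10 of the 32285 genes in the count tables. Each of the 10 symbols was found once. Most nucleated cells show fragments of their own proteins on MHC class I molecules, which CD8 T cells read. Each molecule pairs a heavy chain, such as H2-K1 or H2-D1, with the light chain B2m. Peptides are cut by proteasomes, and during interferon responses the subunits Psmb8, Psmb9 and Psmb10 take the places of Psmb5, Psmb6 and Psmb7 to form the immunoproteasome. Tap1 and Tap2 together pump the peptides into the endoplasmic reticulum, Tapbp (tapasin) holds empty class I molecules beside that pump, and Nlrc5 switches on the promoters of the class I genes. In kidney, blood vessel and immune cells are known for abundant class I, and tubule cells for low levels that can rise in inflammation.

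Whole kidneys of male C3H/HeJ (C3H) mice were dissociated and profiled by droplet-based 3′ RNA-Seq, with 1 library for each of 4 conditions. WT-ND mice were wild type on a normal diet, and WT-HFD mice were wild type on a high-fat diet with 60% of calories from fat. SP-ND and SP-HFD mice were Sweet Pee (SP) mice on the same diets. SP mice carry a missense mutation of Slc5a2, the gene for the glucose cotransporter SGLT2, in every tissue. The paper reports that homozygous mutants made no functional SGLT2 protein. All mice started their diet at 10 weeks of age, stayed on it for 8 weeks and were 18 weeks old at harvest. The number of mice behind each library is not given in the sources used here. Since each condition has a single library, differences between conditions cannot be set against a replicate spread and no p-value is given, and every interval below covers counting error only.

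The libraries held 90728590 to 115117649 unique molecular identifiers (UMIs, counts of single RNA molecules) over 13229 to 16385 barcodes. Between 32.7% and 49.8% of barcodes carried at least 50% mitochondrial UMIs and were left out, and the largest share was in SP-ND. After the filters 6389 to 9924 cells per library were kept, 32280 in all, with 3496 to 5298 UMIs in the median cell. A total of 111 barcodes occurred in more than 1 library. The cells formed 34 clusters, of which 24 were grouped into 13 classes by marker genes, and 10 clusters with 5603 cells stayed unnamed. The B cell-like class was 1 cluster led by Igkc, Jchain, Igha and Mzb1, genes of antibody-secreting plasma cells. With a finer clustering (resolution 1.0) a separate cluster of 219 cells led by Cd79a, Ighd and Cd79b was also named B cell. In the main clustering such cells had no class of their own. The macrophage- or dendritic-like class held 1714 cells there, and its finer clusters held 950, 373 and 170. Most of the 219 cells may therefore lie in that class, and its levels may include theirs. The T cell-like class was 1 cluster whose leading genes held markers of T cells (Trbc2, Cd3g) and natural killer cells (Gzma, Nkg7). One of the unnamed clusters (791 cells, led by Dnase1, Hsd11b1 and Ccl28) came almost only from WT-HFD, which gave 787 of its cells. The largest unnamed cluster held 3106 cells, with 928 UMIs in the median cell, and was led by Hbb-bs and Hba-a1. It scored closest to erythroid cells, and WT-ND gave its largest share. With the finer clustering, an unnamed cluster of 2025 cells (776 UMIs in the median cell) scored closest to proximal tubule. WT-ND gave 52.8% of that cluster. Both stayed outside the proximal tubule-like class, and their part in its values was not tested. Sets of 4 values are given for the wild-type library on ND, that on HFD, the SP library on ND and that on HFD, in this order. Proximal tubule-like cells numbered 2034, 1108, 887 and 536. Slc5a2 stood at 304, 241, 42.5 and 92.4 CPM in them, where CPM is a gene's UMIs per 1000000 UMIs of the pooled cells. A missense mutation need not remove the transcript, so this is only a partial check of the labels.

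Of the 10 genes, 7 lie on chromosome 17, inside or beside the major histocompatibility complex (GRCm38 coordinates from GENCODE). Psmb9, Tap1, Psmb8 and Tap2 sit side by side within 34335 bases. Tap1 (chr17:34187553-34197225, plus strand) and Psmb9 (chr17:34181987-34187764, minus strand) run in opposite directions, and their gene models overlap by 212 bases. H2-K1 lies at chr17:33996017-34000347 on the minus strand, and H2-D1 at chr17:35262730-35267499 on the plus strand. B2m is apart from them at chr2:122147686-122153083 on the plus strand, and Psmb10 and Nlrc5 are on chromosome 8. C3H mice carry the k haplotype of this complex, whereas the reference genome is of the b haplotype, so the H2-K1 and H2-D1 molecules were counted against another allele. What that did to their counts was not tested. In the reference no run of 91 bases within the last 300 bases of a member's transcripts was shared with another gene.

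The promoters of 4 members are shown because B2m and H2-D1 were the members that passed 1.5-fold between diets in proximal tubule-like cells of both genotypes, H2-K1 has the same layout of motifs as H2-D1, and Tap1 has another layout. Each sequence runs 5′ to 3′ along the gene, from 180 bases before to 30 bases after the annotated start, and is credited to RefSeq on GRCm38.p6. The windows are chr17:34000304-34000513 (minus strand, 1 of 2 annotated starts) for H2-K1, chr17:35262914-35263123 (plus) for H2-D1, chr2:122147507-122147716 (plus) for B2m and chr17:34187376-34187585 (plus) for Tap1. Capitals mark any match on either strand to the interferon regulatory factor core AANNGAAA, the NF-kB site (GGG, any 2 bases, TT, any base and CC), the TGACG motif of the X2 box, the CCAAT box and the TATA box (TATAA).
H2-K1: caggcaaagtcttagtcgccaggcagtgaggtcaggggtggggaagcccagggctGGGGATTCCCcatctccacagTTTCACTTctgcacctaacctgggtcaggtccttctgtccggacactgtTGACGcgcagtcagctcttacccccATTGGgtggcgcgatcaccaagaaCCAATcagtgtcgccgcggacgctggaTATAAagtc
H2-D1: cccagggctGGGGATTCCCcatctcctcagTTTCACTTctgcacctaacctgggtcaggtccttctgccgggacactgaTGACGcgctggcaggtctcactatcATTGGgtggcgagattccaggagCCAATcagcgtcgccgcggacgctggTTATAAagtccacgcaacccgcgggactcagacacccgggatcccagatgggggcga
B2m: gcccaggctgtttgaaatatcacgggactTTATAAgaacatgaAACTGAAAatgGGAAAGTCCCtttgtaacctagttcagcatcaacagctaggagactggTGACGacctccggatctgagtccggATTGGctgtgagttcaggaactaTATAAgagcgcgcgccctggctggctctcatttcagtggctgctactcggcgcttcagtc
Tap1: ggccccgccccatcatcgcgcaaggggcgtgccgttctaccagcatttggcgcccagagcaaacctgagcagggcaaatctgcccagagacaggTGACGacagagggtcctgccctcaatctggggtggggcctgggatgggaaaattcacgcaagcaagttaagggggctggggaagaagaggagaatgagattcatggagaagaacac
The H2-K1, H2-D1 and B2m windows each held all 5 motifs, and in each of them the X2 motif was followed 20 bases later by a CCAAT box on the other strand. The printed Tap1 window held only the X2 motif. A run of 6 capitals ending in a TATA box is an overlap of matches on both strands. Promoter windows of 300 bases (250 before to 50 after the start) were held for 8 of the 10 members, 9 windows in all, with H2-K1 giving 2. Tap2 and Nlrc5 had no window. The 2 H2-K1 windows overlap and the Tap1 and Psmb9 windows share 275 bases, so the 9 windows are not separate promoters. Of all 32851 windows, 23.9% held the interferon regulatory factor core, 4.79% the NF-kB site, 20.8% the X2 motif, 37.4% a CCAAT box and 24.9% a TATA box. The X2 motif followed within 30 bases by a CCAAT box on the other strand was in 0.913% of windows, and in 4 of the 9 windows of members. The interferon regulatory factor core and the NF-kB site were likewise in those 4 windows, of B2m, H2-K1 and H2-D1, and in no other window of a member. The H2-K1 and H2-D1 windows were 70.9% identical over 254 bases, laid side by side without gaps at the best offset. A base gained or lost in 1 of them lowers this share. A match of letters is not evidence that a factor binds.

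B2m was highest in macrophage- or dendritic-like cells at 2457 ± 221 CPM (SD over 4 libraries), with T cell-like cells at 2083 ± 314 and endothelial-like cells at 2051 ± 231. The ranges of these 3 classes over the libraries overlapped. The lowest level, 57.2 ± 10.0 CPM, was in thick ascending limb-like cells, 43.0-fold below the highest. Proximal tubule-like cells held B2m at a mean of 172 ± 67.9 CPM, beside intercalated cell-like cells at 182 ± 21.5 and podocyte-like cells at 196 ± 27.2. The proximal tubule-like libraries ran from 109 on ND to 235 on HFD, so this mean and SD span the diets. Intercalated cell-like libraries ran from 161 to 211 and podocyte-like ones from 172 to 224. Of the 12 pairs of neighbours in this order, 8 overlapped in their ranges, so the order separates vessel and immune cells from tubule cells rather than ranking single classes.

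The heavy chains followed the light chain with exceptions. H2-K1 was highest in T cell-like cells at 1448 ± 98.3 CPM and lowest in proximal tubule-like cells at 43.0 ± 9.40, and 8 of its 12 neighbouring pairs overlapped. H2-D1 was highest in endothelial-like cells at 1708 ± 253 CPM and lowest in distal convoluted or connecting tubule-like cells at 65.8 ± 24.8, and 9 of 12 pairs overlapped. Podocytes, the filter cells of the glomerulus, were set apart by H2-D1. It stood at 752 ± 98.8 CPM in podocyte-like cells, between 644 and 863 in every library.

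**Figure D1:**
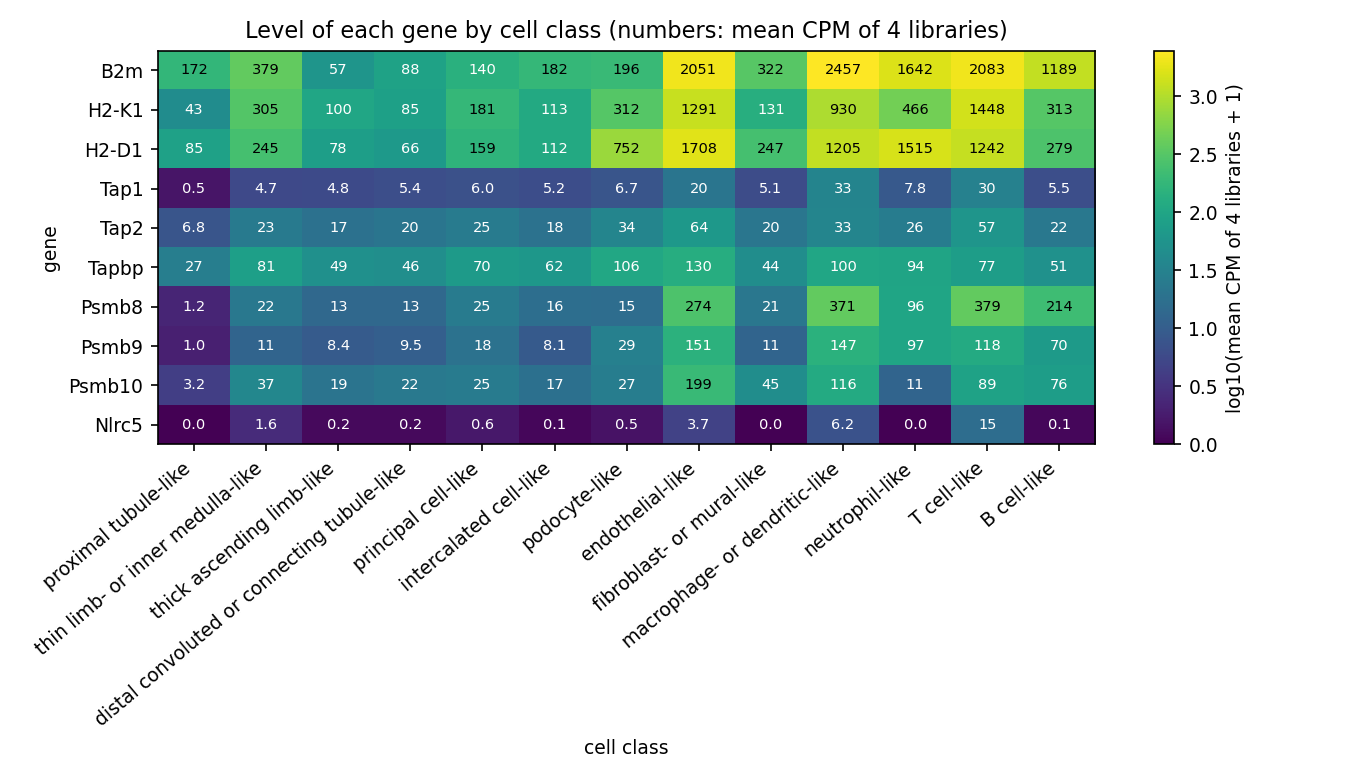
Mean CPM of each of the 10 genes (rows) in each of 13 cell classes (columns), averaged over 4 libraries; colour is log10(mean CPM + 1) and the printed number is the mean CPM. Endothelial-like, macrophage- or dendritic-like and T cell-like columns are among the brightest for B2m, H2-K1 and H2-D1, the podocyte-like column is above the B cell-like one for H2-D1, and the proximal tubule-like column is the darkest for Tap1, Psmb8 and Psmb9.

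The balance of heavy chain to light chain differed between classes. These are UMIs of 3′ ends, 1 per captured molecule and not divided by gene length, so the ratio is compared between classes and not read as a ratio of molecules. There were 3.57, 4.03, 3.74 and 4.04 H2-D1 UMIs per B2m UMI in podocyte-like cells. In thick ascending limb-like cells the ratio was 1.17, 1.40, 1.46 and 1.50, and in proximal tubule-like cells 0.52, 0.57, 0.47 and 0.42. The podocyte-like ratio was therefore above that of thick ascending limb-like cells in every library, with no overlap. Macrophage- or dendritic-like cells stood at 0.492 ± 0.0289. B cell-like cells, the cluster led by Igkc, Jchain and Mzb1, were the lowest at 0.238 ± 0.0551. For H2-K1 the highest ratio was in thick ascending limb-like cells (1.79 ± 0.397), with podocyte-like cells at 1.59 ± 0.224.

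**Figure D2:**
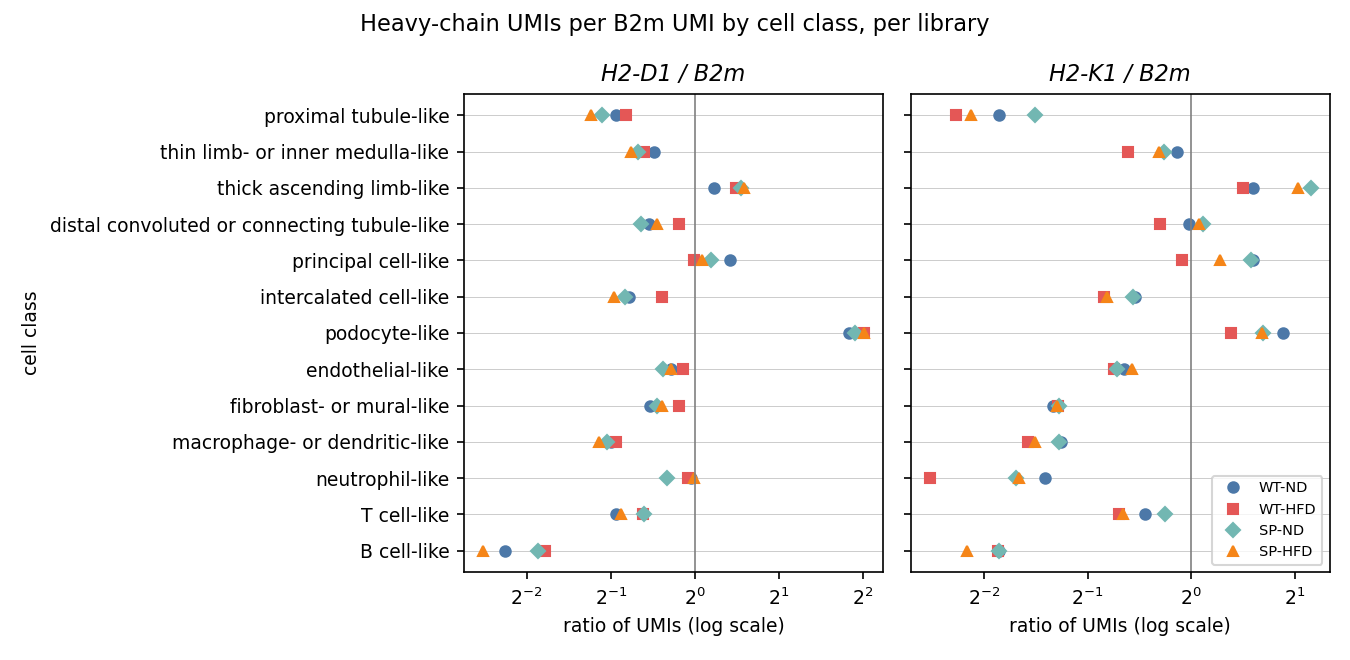
UMIs of H2-D1 (left) and H2-K1 (right) per UMI of B2m on a log axis, by cell class, with 1 point per library and a vertical line at 1. The 4 podocyte-like points for H2-D1 lie between 3.57 and 4.04, to the right of every other class.

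Of the peptide pump and its partner, Tap2 and Tapbp varied less than the chains and Tap1 varied more. Tapbp had the narrowest range of the 9 members that had UMIs in every class, 4.81-fold from endothelial-like cells (130 ± 10.9 CPM) to proximal tubule-like cells (27.0 ± 1.66). Tap2 ran from 63.8 ± 2.34 CPM in endothelial-like cells to 6.83 ± 2.57 in proximal tubule-like cells. Tap1 was scarcer, at 32.5 ± 8.19 CPM in macrophage- or dendritic-like cells and 0.533 ± 0.139 in proximal tubule-like cells, a 61.1-fold range. The latter value rests on 15, 6, 6 and 4 UMIs. For Tap1, 11 of 12 neighbouring pairs overlapped, and for Tap2 and Tapbp 10 each.

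Nlrc5, the activator of class I promoters, was near the limit of detection. T cell-like cells held 7 Nlrc5 UMIs in each of the 4 libraries, or 15.5 ± 4.13 CPM, followed by macrophage- or dendritic-like cells at 6.22 ± 3.19 and endothelial-like cells at 3.68 ± 1.83. In proximal tubule-like cells 1, 1, 0 and 0 Nlrc5 UMIs were counted, which is too few for any comparison. No Nlrc5 UMI was counted in neutrophil-like or fibroblast- or mural-like cells.

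The immunoproteasome subunits had the widest ranges. Psmb8, the immune form of Psmb5, ran from 379 ± 73.1 CPM in T cell-like cells and 371 ± 39.9 in macrophage- or dendritic-like cells to 1.25 ± 0.803 in proximal tubule-like cells, a 304-fold range. Psmb9, the immune form of Psmb6, was highest in endothelial-like cells at 150.6 ± 9.70 CPM and lowest in proximal tubule-like cells at 0.976 ± 0.767. Psmb10, the immune form of Psmb7, was highest in endothelial-like cells at 199 ± 19.2 CPM and lowest in proximal tubule-like cells at 3.25 ± 0.736. The proximal tubule-like level of Psmb8 rests on 10, 34, 18 and 6 UMIs and that of Psmb9 on 8, 31, 8 and 6. Neighbouring ranges overlapped in 9, 10 and 11 of 12 pairs for Psmb8, Psmb9 and Psmb10.

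Each immune subunit was also set beside the constitutive subunit whose place it takes. Psmb8 made up 0.629 ± 0.381% of Psmb8 and Psmb5 UMIs in proximal tubule-like cells, 63.7 ± 0.797% in endothelial-like cells, 76.7 ± 1.92% in macrophage- or dendritic-like cells and 77.6 ± 3.20% in T cell-like cells. In the other tubule-like classes and in podocyte-like cells its mean share was between 6.25% and 12.2%. The proximal tubule-like share was the lowest of the 13 classes in every library. Psmb5 itself was not low there, with 187, 204, 190 and 194 CPM against 135, 168, 147 and 173 in endothelial-like cells. Of the unnamed clusters that scored closest to proximal tubule, the one almost only of WT-HFD had 8.07% Psmb8 in that library. The one led by C3, Ubd and Ccl2 had 8.92 ± 2.97%. The one led by Cyp7b1, Mep1b and Apob had 0 Psmb8 UMIs in each library, with 0, 11, 24 and 30 of Psmb5. Psmb9 made up 0.605 ± 0.456% of Psmb9 and Psmb6 in proximal tubule-like cells and 40.5 ± 1.14% in endothelial-like cells. For Psmb10 and Psmb7 the shares were 3.03 ± 0.700% and 64.6 ± 1.42%.

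**Figure D3:**
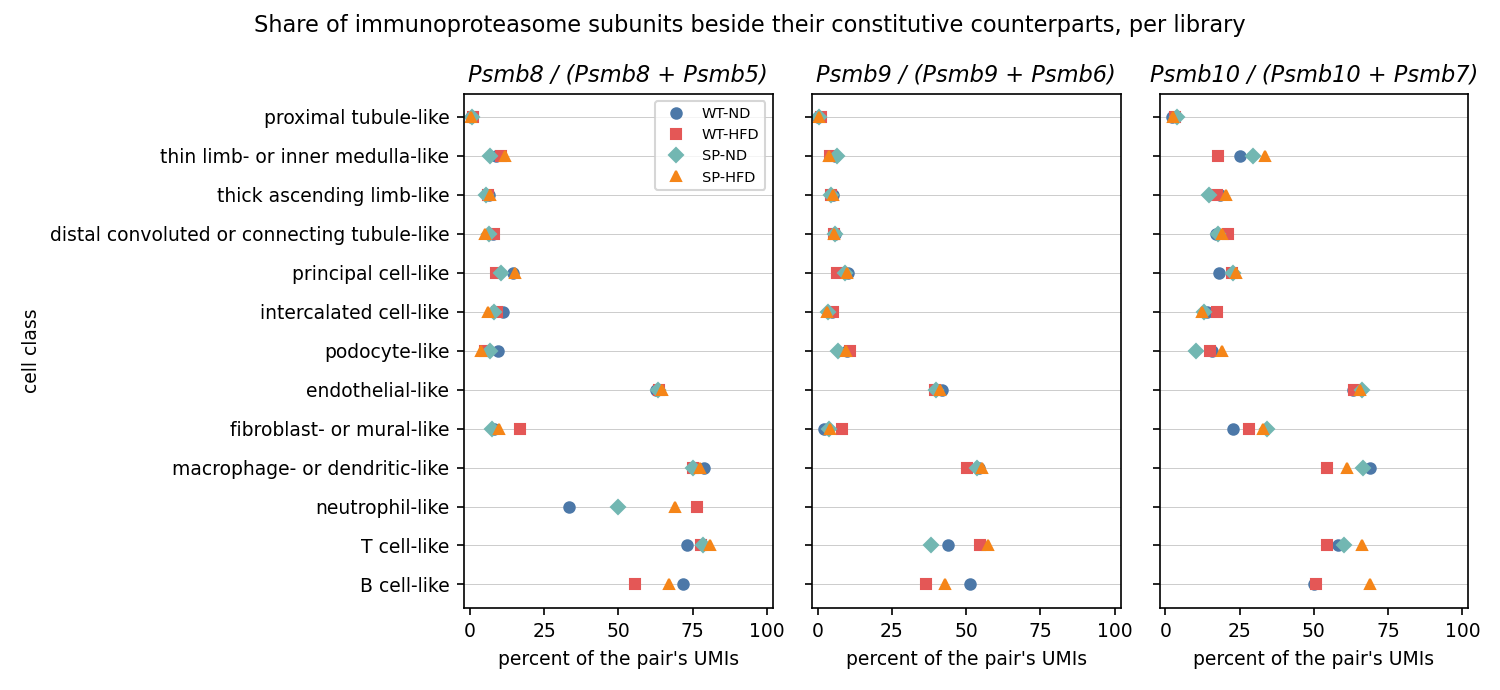
Share of the immune subunit in the summed UMIs of each immune and constitutive pair, in percent, by cell class, with 1 point per library. Endothelial-like and most immune classes lie far to the right of the tubule-like classes, and proximal tubule-like cells lie at 0.259% to 1.11% for Psmb8.

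Within each library, members were also compared with their level in proximal tubule-like cells of that library. The measure is the log2 ratio of CPM, taken for members with at least 50 UMIs in both classes together, and a member counted as higher when it was at least 1.5-fold higher. In endothelial-like cells 9 of 9 such members were higher in every library, and 53.9%, 55.3%, 54.8% and 54.9% of all genes were. The median log2 ratio of the members was 4.92 ± 0.18 (SD, n = 4 libraries). In macrophage- or dendritic-like cells 9, 9, 8 and 9 members could be compared, and each was higher, beside 35.7%, 36.4%, 34.6% and 33.6% of all genes. Their median log2 ratio was 4.44 ± 0.36. Tap1, Psmb8 and Psmb9 had under 50 UMIs in proximal tubule-like cells of every library. They passed the minimum only through the class where they are high, so their calls as higher were fixed by it. Psmb10 had 49, 57, 49 and 22 UMIs there. All of these enter the counts and medians above, which are descriptions and not tests. Nlrc5 was left out throughout for want of UMIs, and Tap1 fell short in SP-ND for the macrophage- or dendritic-like comparison. Proximal tubule-like cells had median mitochondrial shares of 30.4% to 38.7%, which lowers every other gene's CPM, and with mitochondrial UMIs left out of the totals the endothelial-like median was 4.47.

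Classes were not uniform. Among 4 endothelial-like clusters, the one led by Plvap, Fabp4 and Gpihbp1 held B2m at 2943 CPM (95% Poisson interval 2891 to 2995) and H2-K1 at 1820 CPM over its pooled libraries. The cluster led by Ehd3 and Kdr held them at 1457 CPM (1423 to 1492) and 682 CPM. In each of the 4 libraries the first of these clusters was above the second for B2m, with 2461 to 3260 CPM against 1264 to 1536. Macrophage- or dendritic-like cells of the cluster led by Pglyrp1, Itgal and Ear2 held the highest B2m of any cluster, 3990 CPM (3834 to 4151), against 2321 in the larger cluster led by C1qa. An unnamed cluster of 77 cells led by Naaa, Irf8 and Xcr1 held the highest Psmb8, Psmb9 and Tap1 of any cluster, at 926, 597 and 72.6 CPM, and there Psmb8 was 87.8 ± 3.39% of Psmb8 and Psmb5. Another unnamed cluster of 508 cells, led by C3, Ubd and Ccl2, held B2m at 663 CPM. The unnamed cluster almost only of WT-HFD held B2m at 268 CPM, H2-D1 at 198 and H2-K1 at 129.

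High-fat diet was first compared with normal diet in proximal tubule-like cells, the cells that carry SGLT2. B2m stood at 118 CPM in WT-ND and 227 in WT-HFD, and at 109 in SP-ND and 235 in SP-HFD. Both HFD libraries were above both ND libraries. The log2 ratio of WT-HFD over WT-ND was 0.95 (95% interval 0.87 to 1.02), and that of SP-HFD over SP-ND was 1.10 (1.00 to 1.21). These comparisons share no library.

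H2-D1 showed the same order. In wild-type cells its CPM was 61.7 on ND and 129 on HFD, and in SP cells 51.1 on ND and 99.5 on HFD, again with no overlap between diets. The log2 ratios were 1.06 (0.96 to 1.16) in WT and 0.96 (0.81 to 1.12) in SP. H2-K1, the other classical heavy chain, stood at 32.5, 47.0, 38.5 and 53.9 CPM, and its ratios of 0.53 (0.38 to 0.69) and 0.49 (0.29 to 0.68) were above 0 but under 1.5-fold. The WT ratio passed 1.5-fold in 4 of the 10 processing alternatives.

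Members of the loading steps moved less or in 1 genotype. Tapbp was at 26.9, 24.7, 28.6 and 27.8 CPM, and its diet ratios of -0.12 in WT and -0.04 in SP were the closest to 0 among the members compared. Tap2 was at 6.03, 7.25, 3.93 and 10.1 CPM, with a log2 ratio of 0.27 in WT and 1.36 (0.83 to 1.90) in SP, where it rests on 50 and 77 UMIs. Psmb10 was at 2.38, 3.86, 3.85 and 2.88 CPM, with 0.70 (0.12 to 1.28) in WT and -0.42 in SP. Its WT ratio was 0.42 without integration and 1.83 with the cluster almost only of WT-HFD counted as proximal tubule. The pair of ratios therefore pointed the same way for B2m, H2-D1, H2-K1, Tap2 and Tapbp and opposite ways for Psmb10.

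Counted together, 6 of the 10 members had at least 50 UMIs over both libraries, and Tap1, Psmb8, Psmb9 and Nlrc5 fell short. Of these 6, 3 were at least 1.5-fold higher in WT-HFD than in WT-ND (B2m, H2-D1 and Psmb10) and 0 were lower, where 8.86% and 5.96% of all genes were. Their median log2 ratio was 0.61, and that of all genes was 0.02. Between SP-HFD and SP-ND, 3 were higher (B2m, H2-D1 and Tap2) and 0 lower, beside 9.86% and 7.73% of all genes. The median was 0.72, with 0.02 for all genes. When the cluster almost only of WT-HFD was counted as proximal tubule, an alternative chosen after seeing the data, the WT median was 1.09 and H2-K1 reached 1.16.

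**Figure D4:**
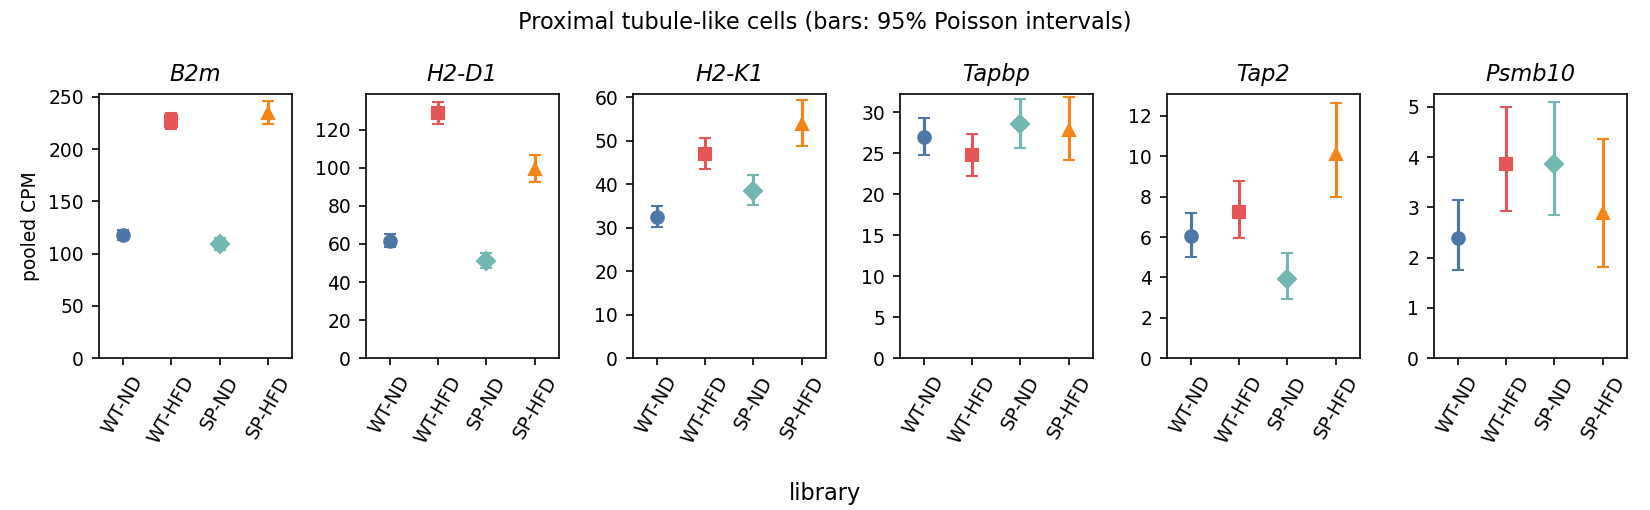
Pooled CPM of 6 genes in proximal tubule-like cells, with 1 point per library and 95% Poisson intervals that cover counting error only; each vertical axis starts at 0. B2m and H2-D1 are higher in both HFD libraries (227 and 235 CPM for B2m) than in both ND libraries (118 and 109 CPM), and Tapbp lies between 24.7 and 28.6 CPM in all 4.

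Several measured properties of proximal tubule-like cells were set beside these values. Their summed proximal tubule markers were at 75477, 67821, 38852 and 65518 CPM, and their median mitochondrial share was 33.7%, 30.4%, 38.7% and 34.0%. RNA from other cells was measured by those cells' markers. The summed markers of endothelial-like cells were at 7.54, 18.6, 8.34 and 11.3 CPM in proximal tubule-like cells. Those of B cells were at 6.90, 26.3, 1.34 and 28.1 CPM, of macrophages or dendritic cells at 2.53, 2.91, 1.81 and 5.51, and of T cells at 6.81, 5.96, 2.28 and 3.28. At the shares given by markers, RNA of endothelial-like cells and the immune classes would bring B2m at 9.65, 11.3, 4.68 and 8.14 CPM. For H2-D1 these sums were 5.46, 8.08, 3.12 and 4.90 CPM. The part of these in the diet ratios was not tested beyond the alternatives given in the closing section. Thick ascending limb-like cells of the same libraries held B2m at 64.5, 65.5, 44.0 and 54.7 CPM.

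Genotype was then compared within each diet, which uses the same 4 libraries as the diet comparisons. Between SP-ND and WT-ND the median log2 ratio of the 6 members was -0.01, with 0.06 for all genes. Psmb10 was the 1 member higher at 0.69 (0.09 to 1.30) and Tap2 the 1 lower at -0.62 (-1.12 to -0.13), where 3.99% of genes were higher and 4.10% lower. Over the 10 processing alternatives Psmb10 ran from 0.64 to 2.43. The latter came after subtracting free RNA, where a count left under 3 UMIs was set to 3, as Psmb10 was in WT-ND. Tap2 passed 1.5-fold in 7 of the alternatives, with -0.37 under 30% mitochondrial UMIs. For SP-HFD over WT-HFD the members' median was 0.11, from -0.29 to 0.15 over the 10 processing alternatives, and 0 members were higher or lower, beside 2.90% and 2.23% of genes. H2-D1 and Psmb10 were each lower past 1.5-fold in 3 of the alternatives, down to -0.66 and -1.61. B2m differed by -0.11 on ND and by 0.05 on HFD on the log2 scale. For H2-D1 these genotype ratios were -0.27 and -0.37, and for H2-K1 they were 0.24 and 0.20.

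Endothelial-like cells, where class I is abundant, had smaller differences. B2m was at 1836, 2111, 1907 and 2350 CPM. H2-D1 was at 1505, 1919, 1473 and 1933 CPM, so for both genes each HFD library was above each ND library. The largest cluster of the class was the one led by Ehd3 in WT-ND and the one led by Plvap in the other libraries. Within the Plvap cluster the order held for B2m (2766, 3174, 2461 and 3260 CPM) and H2-D1 (1794, 2386, 1575 and 2171 CPM). Within the Ehd3 cluster it held for H2-D1 (1069, 1322, 978 and 1243 CPM) but not for B2m (1496, 1456, 1264 and 1536 CPM). Summed proximal tubule markers in endothelial-like cells were at 8455, 3214, 1893 and 2252 CPM and erythroid markers at 775, 59.8, 171 and 185 CPM, highest in WT-ND, and their part in these values was not tested. H2-K1 was at 1171, 1258, 1157 and 1577 CPM. None of these pairs reached 1.5-fold, and the log2 diet ratio of H2-D1, the largest of the 3 in WT, was 0.35 in WT and 0.39 in SP. Psmb8 was at 227, 295, 256 and 316 CPM, and its log2 diet ratios were 0.38 and 0.30.

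Of 9 members compared in endothelial-like cells, 0 were at least 1.5-fold higher or lower between WT-HFD and WT-ND, beside 4.34% and 6.18% of genes, and 0 between SP-HFD and SP-ND, beside 3.60% and 4.70%. The median log2 ratios were 0.12 and 0.23. Between SP-ND and WT-ND 0 were higher, beside 4.44% of genes, and Tap1 alone was lower at -0.73 (-1.29 to -0.19; 15.9 against 26.5 CPM), beside 4.54%, with -0.58 under 30% mitochondrial UMIs. Between SP-HFD and WT-HFD there were 0 in either direction, beside 2.71% and 2.81% of genes. The medians of the genotype comparisons were 0.01 and 0.10.

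The light chain and H2-D1 were followed between diets over all 13 classes. Among all genes compared, 36.0% to 65.5% were above 0 in a class in WT and 24.5% to 63.8% in SP. The share of all genes above 0 in both was not computed, so the counts below are descriptions. B2m was above 0 in the WT and in the SP comparison in 8 of 13 classes and below 0 in both in 0. Its intervals lay above 0 in both genotypes in 4 classes, proximal tubule-like, endothelial-like, macrophage- or dendritic-like and T cell-like cells, and it was past 1.5-fold in both in proximal tubule-like cells alone. H2-D1 was above 0 in both genotypes in 8 of 13 classes and below 0 in both in 2, with both intervals above 0 in proximal tubule-like, thick ascending limb-like, podocyte-like and endothelial-like cells, and was past 1.5-fold in both in proximal tubule-like cells alone. H2-K1 was above 0 in both in 3 classes and below 0 in both in 5, so over the 13 classes it did not follow its partner chain. Its intervals lay above 0 in both genotypes in 2 classes, proximal tubule-like and endothelial-like cells, and it was past 1.5-fold in both in 0. Tapbp was above 0 in both in 1 of 12 classes and below 0 in both in 7. The only other member past 1.5-fold on HFD in both genotypes was Psmb8 in thin limb- or inner medulla-like cells (0.69 and 1.10), on 14, 38, 14 and 51 UMIs. Its WT interval did not lie above 0. In WT it was the 1 of 7 members higher, with 1 lower, beside 7.67% and 11.7% of genes, and the members' median was -0.37. In SP it was the 1 of 7 higher, with 0 lower, beside 6.84% and 4.86%.

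Over all classes the members were not called much more often than other genes in the WT comparison. Pairs of a member and a class with enough UMIs numbered 99 between WT-HFD and WT-ND, and 11 of these were higher and 7 lower, beside 8.01% and 8.15% of all pairs of a gene and a class. Between SP-HFD and SP-ND 14 of 94 pairs were higher and 3 lower, beside 5.93% and 6.13%. Between SP-ND and WT-ND 3 of 91 were higher and 5 lower (3.92% and 4.73%), and between SP-HFD and WT-HFD 5 of 99 were higher and 5 lower (5.31% and 6.38%). The B cell-like pairs against SP-ND, with 5 cells there, are among them.

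**Figure D5:**
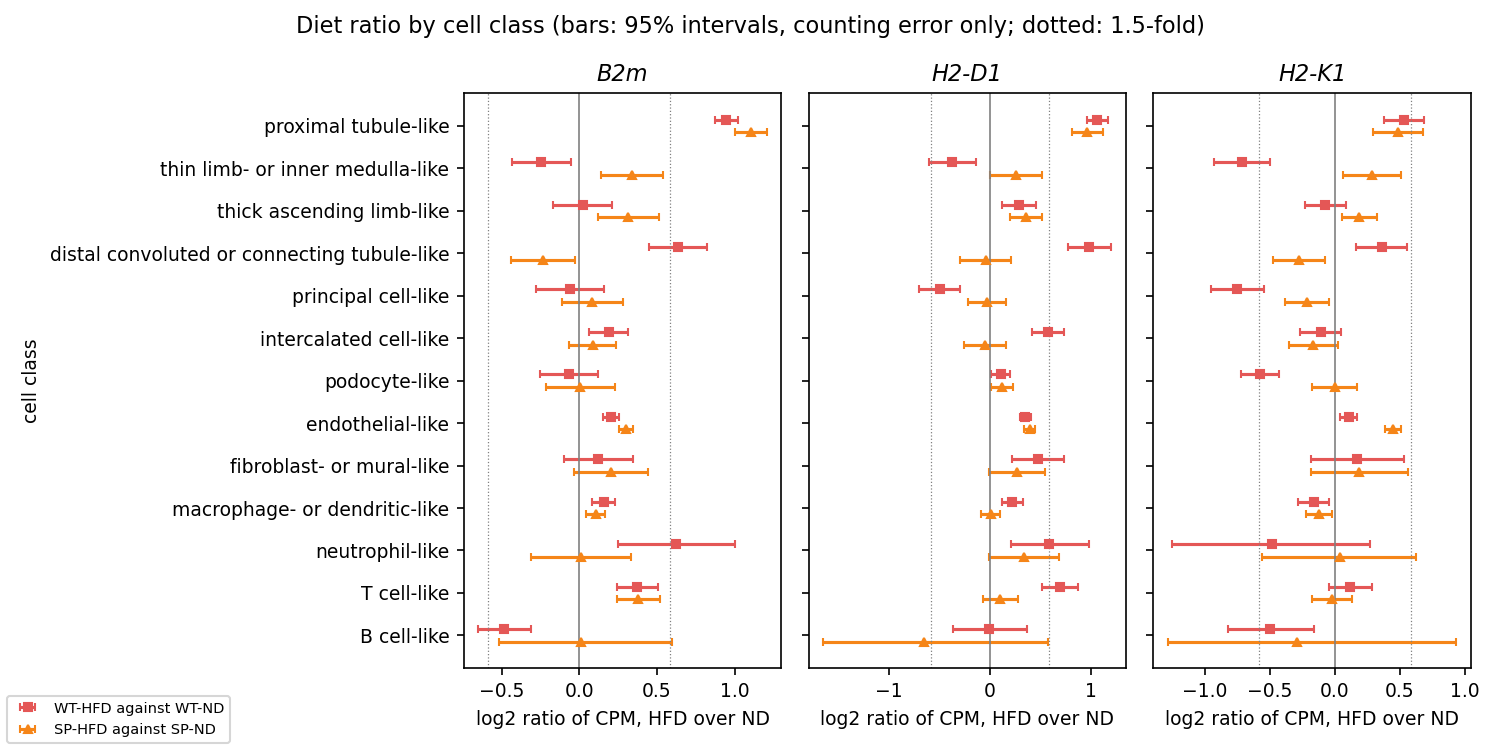
Log2 ratio of CPM, HFD over ND, for B2m, H2-D1 and H2-K1 in each cell class, in WT (squares) and SP (triangles), with 95% intervals for counting error; dotted lines mark 1.5-fold. For B2m and H2-D1 both proximal tubule-like points lie beyond the right dotted line, between 0.95 and 1.10.

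In other classes members passed 1.5-fold in single comparisons. In distal convoluted or connecting tubule-like cells B2m was at 75.6, 118, 85.4 and 72.6 CPM and H2-D1 at 52.1, 103, 54.9 and 53.3 CPM, so that WT-HFD stood alone above the other 3 libraries. This class has 2 clusters, and 67.4% of its WT-HFD cells were in the one led by Slc8a1, S100g and Calb1, while 54.2% to 58.6% of its cells in the other libraries were in the one led by Pvalb. B2m was at 72.2, 166, 81.5 and 64.2 CPM in the first cluster and at 77.7, 77.2, 87.9 and 76.1 CPM in the second, so the high WT-HFD level was that of the first cluster. Both were at least 1.5-fold higher in WT-HFD than in WT-ND (0.64 and 0.98), 2 of 9 members compared, where 8.96% of genes were. Both were lower in SP-HFD than in WT-HFD (-0.70 and -0.95), again 2 of 9, beside 6.92% of genes. With a finer clustering the B2m ratio of WT-HFD over WT-ND was -0.0038. There the class cluster led by Slc8a1, S100g and Calb1 held 604 cells (8924 UMIs in the median cell), 16.6% of them from WT-HFD. A cluster of 1034 cells (1318 UMIs in the median cell) stayed unnamed. It was led by Hbb-bs and Hba-a1, had S100g and Calb1 among its leading genes, and was 45.6% from WT-HFD. H2-D1 in intercalated cell-like cells was at 108, 161, 90.9 and 88.0 CPM, and it and Psmb10 were the 2 of 8 members lower in SP-HFD than in WT-HFD, beside 8.65% of genes. With the finer clustering, a cluster of 753 cells (3466 UMIs in the median cell) scored closest to intercalated cells but stayed unnamed. WT-HFD gave 69.6% of it. Without integration a cluster of 2582 cells led by Car3, Dnase1 and Ccl28 was 99.0% from WT-HFD. The part of such cells in these ratios was not tested beyond the alternatives in the closing section.

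In thick ascending limb-like cells the members past 1.5-fold between SP-HFD and SP-ND were peptide-supply genes. Tap2, Psmb8, Psmb9 and Psmb10 were 0.68 to 0.75 higher on the log2 scale in SP-HFD than in SP-ND, 4 of 9 members against 4.21% of genes. Psmb8, for example, was at 11.4 CPM in WT-ND and 14.5 in WT-HFD, and at 9.97 in SP-ND and 15.9 in SP-HFD. SP-ND also stood apart in this class by its erythroid markers, which summed to 1.56, 5.15, 362 and 1.17 CPM, and by the lowest sum of thick ascending limb markers, at 27496, 27894, 22289 and 28247 CPM. Their part in the ratios was not tested. Whether the diet ratios of WT and SP differ was not tested.

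In principal cell-like cells of the collecting duct, H2-K1, Psmb8 and Psmb9 were lower in WT-HFD than in WT-ND (-0.75, -0.99 and -0.72), 3 of 8 members where 8.98% of genes were lower. Psmb8 there was at 30.3, 15.2, 20.8 and 32.9 CPM, and between SP-HFD and SP-ND it was the 1 of 8 members that was higher, at 0.66, beside 6.31% of genes. In podocyte-like cells Psmb8, Psmb9 and Psmb10 were lower in SP-ND than in WT-ND (-0.64, -0.77 and -0.78), 3 of 8 members beside 5.80% of genes. In T cell-like cells H2-D1 was the 1 of 8 members higher in WT-HFD than in WT-ND, at 0.69, beside 17.6% of genes. B cell-like cells of SP-ND numbered 5, so ratios against them are given only where the processing turned their sign.

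The rest of the pathway was read from lists of the other genes, with the same minimum of 50 UMIs. Among the constitutive proteasome and its activator, 6 of 6 genes were compared in proximal tubule-like cells, and 0 passed 1.5-fold in any of the 4 comparisons. Over all genes 2.23% to 9.86% passed in a given direction in these comparisons, so a count of 0 among so few genes is near the background. Of 5 peptide trimming and loading genes, 0 passed between WT-HFD and WT-ND, and Tapbpl, a tapasin relative, was lower between SP-HFD and SP-ND (-0.85; 2.75 against 4.96 CPM). Of 10 interferon-gamma signalling genes 7 were compared, and 0 passed between WT-HFD and WT-ND. Of 8 promoter factors 7 were compared, and Rfxank, a subunit of the factor that binds the X box, was higher on HFD in WT at 0.65 and in SP at 0.66, while Rfx5 and Rfxap of the same factor were lower in SP at -0.80 and -0.59. These calls stand beside 8.86% of genes higher in WT and, in SP, 9.86% higher and 7.73% lower. The readers Cd8a and Cd8b1 had too few UMIs there.

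Of 11 other class I-like chains 3 or 4 were compared in proximal tubule-like cells. H2-T23, which encodes the nonclassical molecule Qa-1, was at 20.4, 23.8, 16.8 and 18.5 CPM, and passed 1.5-fold in neither diet comparison there. H2-Q10, a secreted heavy chain, had 14, 13, 92 and 6 UMIs, so that SP-ND stood alone. In endothelial-like cells H2-T23 was at 323, 455, 354 and 492 CPM, under 1.5-fold in both diet comparisons. Cd1d1, a lipid-presenting chain, was higher on HFD at 0.72 in WT and 0.70 in SP, and Ifngr2, a subunit of the interferon-gamma receptor, at 0.67 and 0.74.

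Across the 13 classes the members' levels ran together to differing degrees. Pearson's r of log2(CPM + 10) over the class means had a median of 0.80 over 45 pairs of members. It ran from 0.40 between Nlrc5 and Tapbp to 0.96 between Psmb8 and Psmb9. Nlrc5 was near the limit of detection, and among pairs without it the lowest r was 0.57, between Tapbp and B2m. The 13 points share 4 libraries and are not independent. Of 6518 other genes with at least 50 CPM in a class, those most like B2m over the classes were 9930111J21Rik2 (r = 0.95), Sp100, Klf2, Ifi27l2a and Srgn (r = 0.93). For Tap1 the closest were Etv3 (r = 0.95), Rap2b, Wdr89, Phf11b and Atad2.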

How the data were processed

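The authors deposited whole-number UMI counts per gene and barcode for 4 libraries (Chromium 3′ v3.1, build mm10). The matrix headers name Cell Ranger 6.1.2, and the submitters' processing notes name 2.1.1. The study describes a SoupX correction for free RNA. Whether the deposited counts were taken before it is not given in the sources used here, and no such correction was made here outside 1 alternative. From these counts, cells with 200 to 5000 genes and under 50% mitochondrial UMIs were kept (genes in at least 3 cells, 21392 of 32285). Simulated-neighbour doublets were removed at 0.8% per 1000 cells, 365 to 945 per library. Cells were integrated and clustered with Seurat 5.3.0 (R 4.3.3; 2000 genes, 50 dimensions, resolution 0.5). The 10 members and the listed pathway genes, 52 in all, were left out of the clustering genes. Clusters were named from marker lists where the mean log2 ratio of a list reached 1.5 with at least 3 markers detected. That threshold was raised from 1 after the clusters were seen, which can leave clusters unnamed. UMIs were summed per library and class. CPM values have exact Poisson 95% intervals, and log2 ratios have exact conditional binomial ones. A gene was compared where both groups held at least 50 UMIs together, and 1.5-fold was the limit for a call. This limit is a size and not a test. Cells are not replicates. The members, the pathway lists and the marker lists were chosen with earlier results of these data known. The text names the 10 members, listed genes past 1.5-fold or abundant, and the 5 genes most like B2m and Tap1. Alternatives were a stricter mitochondrial limit of 30%, at least 1000 UMIs per cell, a doubled doublet rate of 1.6%, mitochondrial UMIs left out of totals, median-ratio size factors, means over cells, 10% of UMIs subtracted as free RNA, no integration and a resolution of 1.0. Where the subtraction of free RNA left a gene with under 3 UMIs in a group, its count was set to 3. This floor enters the medians given for that alternative. The interval scripts were tested on simulated data. Python 3.11.15, numpy 2.4.6 and scipy 1.17.1 were used. The SP diet comparison of the interferon-gamma signalling list and the genes most like Nlrc5 are not reported here.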

Additional observations from a re-analysis of the deposited data

Results flagged for a closer look

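In principal cell-like cells Psmb8 had a diet log2 ratio of -0.99 in WT and 0.66 in SP, with each past 1.5-fold in its own direction. It rests on 81 and 38 UMIs in WT-ND and WT-HFD and on 68 and 96 in SP-ND and SP-HFD. It was singled out because the libraries of the 2 genotypes moved in opposite directions. With 1 library per condition the difference was not tested.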

How the results depend on the processing

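No paired analysis was possible because each condition has 1 library. Median log2 ratios over the members moved by less than a typical member's counting interval, or than the SD of the 4 libraries, in 85 of 100 repeats. That interval runs between the medians of the members' lower and upper limits, and is not an interval of the median itself. The median between WT-HFD and WT-ND in proximal tubule-like cells (0.61) was 0.93 under 30% mitochondrial UMIs, 0.92 as a mean over cells, 1.05 after subtracting free RNA and 1.09 with the WT-HFD cluster added, and its lowest value was 0.41, without integration. For SP-HFD over WT-HFD the members' median (0.11) turned sign, to -0.29 as a mean over cells, -0.17 after subtracting free RNA and -0.28 with that cluster added. For endothelial-like against proximal tubule-like cells (4.92) it was 4.65 under 30% mitochondrial UMIs, 4.47 with mitochondrial UMIs left out, 4.17 with size factors, 4.63 as a mean over cells, 5.91 after subtracting free RNA and 4.65 with that cluster added. For macrophage- or dendritic-like cells (4.44) it was 3.99 with mitochondrial UMIs left out and 5.60 after subtracting free RNA. In proximal tubule-like cells B2m ranged from 0.93 to 1.22 in WT and from 0.93 to 1.24 in SP, and H2-D1 from 1.01 to 1.32 and from 0.81 to 1.21, past 1.5-fold in 10 of 10 alternatives each. Of 4270 repeats for single genes 4018 moved by less than the counting interval and 7 that had passed 1.5-fold changed sign: B2m in distal convoluted or connecting tubule-like cells, WT-HFD over WT-ND, at -0.0038 with resolution 1.0, Psmb8 in fibroblast- or mural-like cells, SP-HFD over WT-HFD, at 0.72 without integration, and in B cell-like cells, SP-HFD over SP-ND, H2-D1 at 0.046 with size factors, Psmb8 at 0.16 as a mean over cells, and Psmb9 at -0.42 as a mean over cells and -0.71 after subtracting free RNA, and Psmb8, SP-ND over WT-ND, at -0.0046 as a mean over cells. The cause was not tested. Counting the WT-HFD cluster as proximal tubule can move only ratios that use proximal tubule-like cells. It can barely move their SP diet ratios, as 0.379% of the cluster came from SP-ND and none from SP-HFD. This setting gave 416 of the 4018 single-gene repeats and 7 of the 85 medians counted as moving little, which is therefore in part fixed by design. Depth limits Tap1, Psmb8, Psmb9 and Nlrc5 in proximal tubule-like cells. There, 4 to 34 UMIs per library (0 or 1 for Nlrc5) allowed no comparison between libraries.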
